A study of Mus musculus with 24 samples.

Results

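DE-2 is 1 of the 16 dorsal excitatory populations that the authors named among nuclei of the mouse lumbar spinal cord. Its members were taken from the deposited annotation, as every nucleus whose cell type entry was DE-2, and there were 80 of them among 18000 barcodes. The 16 populations together held 1432 nuclei, so DE-2 was 5.59% of them, and 4280 of the 7103 neuronal nuclei had any population. The letters D and E were read as dorsal and excitatory. DE-2 nuclei came from 21 of the 24 mice. Control replicates 7 and 9 and formalin replicate 8 held none.

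All mice were adults of the outbred ICR/CD-1 stock, males and females, 8 to 11 weeks old, with no genetic modification named. The 9 control mice, 10 formalin mice and 5 rotarod mice are each 1 sample. The labels do not say whether any sample pooled animals. Formalin mice were injected with 30 µl of 2% paraformaldehyde in the plantar skin of both hindpaws, a painful stimulus, and rotarod mice ran on a rod accelerating from 0 to 40 rotations per minute in 5 minutes. The labels name the tissue as brain, but the extraction protocol describes the lumbar cord without dorsal root ganglia. Nuclei were profiled by Drop-seq, in which each captured mRNA molecule carries a unique molecular identifier (UMI), so a count is a count of molecules. Mice were habituated before formalin or the rotarod. How controls were handled, and the time from stimulus to collection, is not stated in the labels. Formalin samples numbered 5 apart resembled each other over all neurons (mean r of deviations 0.253, against -0.150 for other formalin pairs), so formalin replicates 2 and 7, and 5 and 10, may not be independent, which the labels do not settle.

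The dorsal horn receives touch, itch, temperature and pain input from the skin and viscera, and most of its local neurons are excitatory. These release glutamate that is loaded into vesicles by VGLUT2, the product of Slc17a6, and many develop under the control of the transcription factors Tlx3 and Lmx1b. Types of dorsal horn excitatory neuron are commonly told apart by the neuropeptides they make (substance P, neurokinin B, cholecystokinin, neurotensin, somatostatin, gastrin-releasing peptide) and by the peptide receptors they carry. Neuromedin U receptor 2, the product of Nmur2, is a Gq-coupled receptor for the peptides neuromedin U and neuromedin S, and is known in the cord for its part in nociceptive sensitivity.

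The pooled DE-2 nuclei held 180781 UMIs. They were set beside 1168 nuclei of the other 15 DE populations from the same 21 mice, which held 3173151 UMIs. Values are counts per 1000000 UMIs of the pooled nuclei (CPM), and 1 UMI in DE-2 was worth 5.53 CPM. The median DE-2 nucleus had 1980 UMIs and 1143.5 genes, against 2170 UMIs and 1189 genes in the other DE nuclei. The authors formed the populations from expression in these same nuclei, so each comparison of DE-2 with the rest is a description and carries no test. Ratios are followed by a 95% interval that covers counting error only. Variation between animals is shown by the 7 mice with at least 5 DE-2 nuclei, namely control replicates 1, 6 and 8, formalin replicates 5 and 10, and rotarod replicates 4 and 5.

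The dorsal excitatory label was held against marker genes. The summed level of 6 dorsal excitatory markers (Slc17a6, Lmx1b, Tlx3, Prrxl1, Ebf1 and Cacna2d1) was 6323 CPM in DE-2, 3985 CPM in the other DE nuclei and 1190 CPM in the dorsal inhibitory families. It was above the other DE nuclei in 7 of 7 mice, where DE-2 ranged from 5644 to 7658 CPM and the others from 3557 to 4561 CPM. Most of its 1143 UMIs in DE-2 were of Ebf1 (675) and Cacna2d1 (375), while Slc17a6, Lmx1b and Prrxl1 had 25, 49 and 19. The same sum was 2579 CPM in endothelial nuclei, above the dorsal inhibitory families, so it is not particular to excitatory neurons. Tlx3 was the marker at 0 UMIs, and it had 13 UMIs in all other DE nuclei. Of 5 inhibitory markers none was at 0, but their sum was 12 UMIs, or 66.4 CPM, against 33.7 CPM in other DE nuclei and 643 CPM in the dorsal inhibitory families. Over mice the inhibitory sum ranged from 0 to 120 CPM in DE-2 and from 11.1 to 61.6 CPM in the rest. The 6 forebrain markers were all at 0 UMIs in DE-2, and the 6 lumbar Hox genes in the table summed to 149 CPM against 128 CPM.

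Markers of neurons at large and of other cell types were also counted. The 7 neuron markers, none of them at 0, summed to 37908 CPM in DE-2 and 41907 CPM in other DE nuclei. DE-2 was above in 1 of 7 mice, and the median log2 ratio of these markers was -0.54. The 8 oligodendrocyte markers, none of them at 0, summed to 2412 CPM in DE-2, 1599 CPM in other DE nuclei and 17859 CPM in oligodendrocytes. Over the 7 mice this sum ran from 912 to 3978 CPM in DE-2 and from 882 to 3695 CPM in the rest, and DE-2 was above in 5 mice. Mitochondrially encoded genes summed to 2738 CPM against 2118 CPM, with 3 of the 10 at 0 UMIs and DE-2 between 1042 and 8160 CPM over mice. Astrocyte markers summed to 293 CPM against 213 CPM, and microglial markers to 38.7 CPM against 70.3 CPM. Their part in the ratios below was not tested.

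Of 3141 genes with enough counts (a mean of at least 10 observed and expected UMIs in DE-2), 211 genes, or 6.72%, were at least 2-fold higher in DE-2 and 271 genes, or 8.63%, at least 2-fold lower. The median log2 ratio was 0.04. DE-2 lay above the other DE nuclei of the same animal in all 7 mice for 132 genes (4.2%) and below in all 7 for 249 genes (7.93%).

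**Figure D1:**
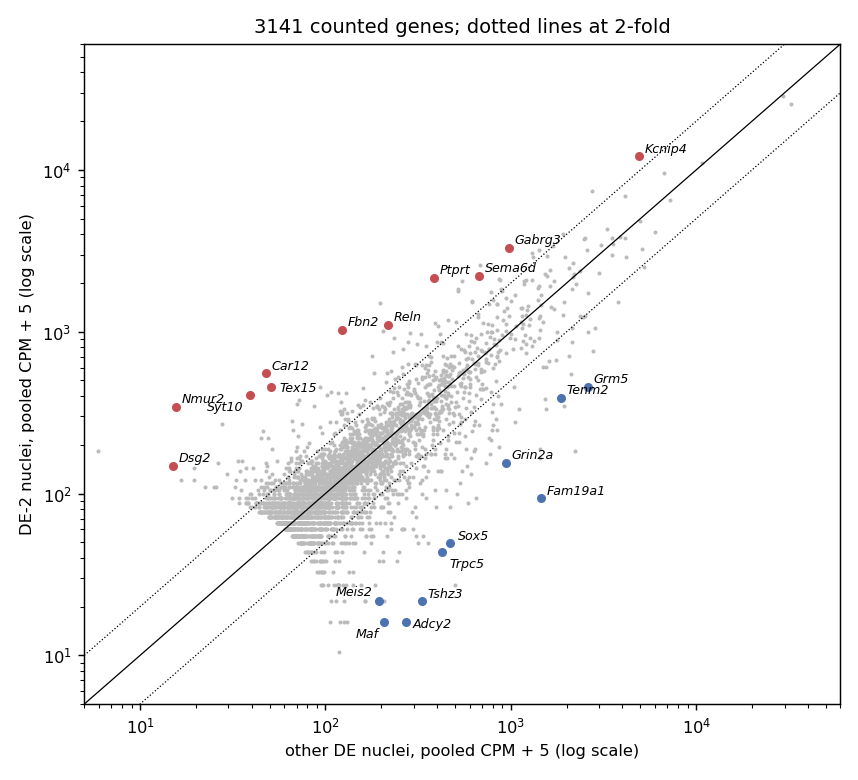
Pooled level of each of the 3141 counted genes in DE-2 (vertical) against the other DE nuclei (horizontal), both in CPM with 5 added and on log axes. Each point is 1 gene, the solid line marks equal levels and the dotted lines 2-fold. Nmur2 stands far above the line at 337 against 10.7 CPM, and Maf and Adcy2 far below it at 11.1 CPM each.

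Nmur2 had the highest ratio of all genes that met the naming rule. It had 61 UMIs in 35 of 80 DE-2 nuclei and 34 UMIs in 24 of the 1168 other DE nuclei, which is 337 against 10.7 CPM and a 31.5-fold ratio (20.4 to 49.4). In the 7 mice its level had a low of 46.3, a median of 320 and a high of 454 CPM in DE-2, against a low of 4.52, a median of 7.52 and a high of 46.2 CPM in the other DE nuclei. DE-2 was above in 7 of 7 mice and the ranges all but touched. The lowest DE-2 value came from control replicate 8, which had 9 DE-2 nuclei, and the highest level in other DE nuclei from rotarod replicate 5. Of all 43 populations DE-2 had the highest level, and DE-13 came next with 109 CPM. No Nmur2 UMI was found in DE-1. The share of nuclei with an Nmur2 UMI was 43.8% (32.7 to 55.3, exact binomial) in DE-2, 2.05% in other DE nuclei and 0.275% in oligodendrocytes, whose median depth was 1092 UMIs. With each nucleus thinned to 500 UMIs, a depth all DE nuclei reached, the shares were 15% and 0.428%. The gene, which is protein-coding, lies at chr11:56024987-56041010 on the minus strand (GRCm38) and overlaps Gm12239 on the other strand, which had 32 UMIs in DE-2. No strand setting is stated for the counts, so reads of the pair cannot be told apart. Gm12239 was at nearly the same level in both sets, with 177 CPM in DE-2 and 145 CPM in other DE nuclei.

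The stretch just upstream of a gene's start is shown for Nmur2 and for Car12, the leading genes with the highest ratios among those above in all 7 mice. Each sequence is the 250 bases before the RefSeq start (GRCm38.p6), written 5′ to 3′ along the gene's strand, with matches to the E-box CANNTG in capitals. This motif reads the same on both strands.
Nmur2, chr11:56040988-56041237, minus strand: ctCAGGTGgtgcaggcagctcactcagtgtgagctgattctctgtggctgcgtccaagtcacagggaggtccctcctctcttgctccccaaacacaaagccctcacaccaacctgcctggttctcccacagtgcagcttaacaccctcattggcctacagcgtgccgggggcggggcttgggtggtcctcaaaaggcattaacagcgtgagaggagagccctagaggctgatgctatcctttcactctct
Car12, chr9:66713436-66713685, plus strand: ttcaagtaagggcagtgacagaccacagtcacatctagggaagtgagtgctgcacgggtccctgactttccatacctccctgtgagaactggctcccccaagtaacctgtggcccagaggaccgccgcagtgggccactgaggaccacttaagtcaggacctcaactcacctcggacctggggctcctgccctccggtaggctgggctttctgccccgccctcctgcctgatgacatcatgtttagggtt
Nmur2 had 1 match and Car12 had 0. Of all 32851 upstream windows of this length in the RefSeq table, 66.2% held a CANNTG. For the 25 genes with the highest ratios, 18 were found in that table under 21 windows, and 11 of those windows held it. A match is a description of the letters only, and says nothing of a factor.

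Among the 25 genes with the highest ratios, DE-2 ranked first of the 16 DE populations for 15 and second for the other 10. For 14 genes it also ranked first among all 43 populations. DE-2 was above in all 7 mice for 12 of the 25, beside 4.2% of all counted genes. The naming rule itself favours such ranks and separation, since it picks the highest ratios. The next highest DE population was DE-3 for 10 of the 25 and DE-1 for 6. DE-3 was the smallest DE population, with 37 nuclei, so its levels rest on few counts. The last gene named was Lrrc8b at 4.48-fold and the first left out was Nrep at 4.30-fold.

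Car12 encodes a membrane-bound carbonic anhydrase. It was at 298, 415 and 1506 CPM (lowest, median and highest of the 7 mice) in DE-2 and at 9.24, 30.9 and 54.3 CPM in other DE nuclei. The 2 ranges were well apart, with rotarod replicate 5 giving the high value, and the pooled ratio was 12.8-fold (9.76 to 16.7). Syt10, a calcium sensor of regulated exocytosis, was at 251, 332 and 608 CPM against 18.8, 32.8 and 55.6 CPM, a ratio of 11.8-fold (8.62 to 16). DE-2 led the DE family for Syt10, but the inhibitory population DI-1 was higher still, with 436 CPM. Tex15, best known from germ cells, was more variable: its DE-2 values were 0, 199 and 880 CPM against 21.6, 33.8 and 75.0 CPM, higher in 6 of 7 mice and 9.93-fold pooled.

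Reln encodes reelin, a secreted glycoprotein that guides neuron placement. It had 199 UMIs in 60 of 80 DE-2 nuclei and was at 694, 1129.8 and 1519.6 CPM in the DE-2 mice against 57.7, 172 and 330 CPM, 5.15-fold pooled (4.38 to 6.04). All 7 DE-2 values were above all 7 others, yet DE-1 was higher, with 1984 CPM. Fbn2, a fibrillin of microfibrils, was 8.64-fold higher (7.20 to 10.3) at 1023 CPM, and DE-3 was above DE-2 with 1639 CPM. The collagen chain Col11a2 (9.96-fold, 21 UMIs) and the protease Tll2 (8.01-fold, 21 UMIs) were sparse, and each was at 0 in at least 1 of the 7 mice. Col11a2 had a UMI in 22.5% of DE-2 nuclei, 2.74% of other DE nuclei and 20.0% of oligodendrocytes, and the oligodendrocyte marker sum was higher in DE-2 (2412 against 1599 CPM). The part of oligodendrocyte RNA in its ratio was not tested. Lrrc8b was likewise in 26.3% of DE-2 nuclei, 6.85% of other DE nuclei and 13.6% of oligodendrocytes.

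Ptprt, a receptor tyrosine phosphatase with adhesive domains, was found in 78 of 80 DE-2 nuclei and 454 of 1168 others. It was at 1433, 2009 and 2660.3 CPM in DE-2 mice against 316, 389 and 536 CPM, with no overlap and a pooled ratio of 5.63 (5.01 to 6.32). Prex2, an exchange factor for Rac, had 1001 CPM in DE-2, 199 CPM in other DE nuclei and 1623 CPM in DE-1. Plce1, a phospholipase C, was 5.43-fold higher (4.03 to 7.22), and its next DE population, DE-3, had 205 CPM against 354 CPM in DE-2. Khdrbs3, a neuronal splicing regulator, was 5.14-fold higher, and the melanocortin receptor accessory protein Mrap2 4.55-fold higher, both in 7 of 7 mice.
Enzymes of the cell surface that break down transmitters were also present: Mme, or neprilysin, which cuts neuropeptides, was 5.07-fold higher (3.20 to 7.78), and Entpd3, which breaks down extracellular ATP, 4.92-fold higher (3.36 to 7.07). Dsg2, a desmosomal cadherin, reached 14.3-fold (8.16 to 24.7) on 26 UMIs in 14 nuclei. Hmga2, a chromatin protein of immature cells, was 5.40-fold higher, but DE-1 held 470 CPM against 155 CPM in DE-2.

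**Figure D2:**
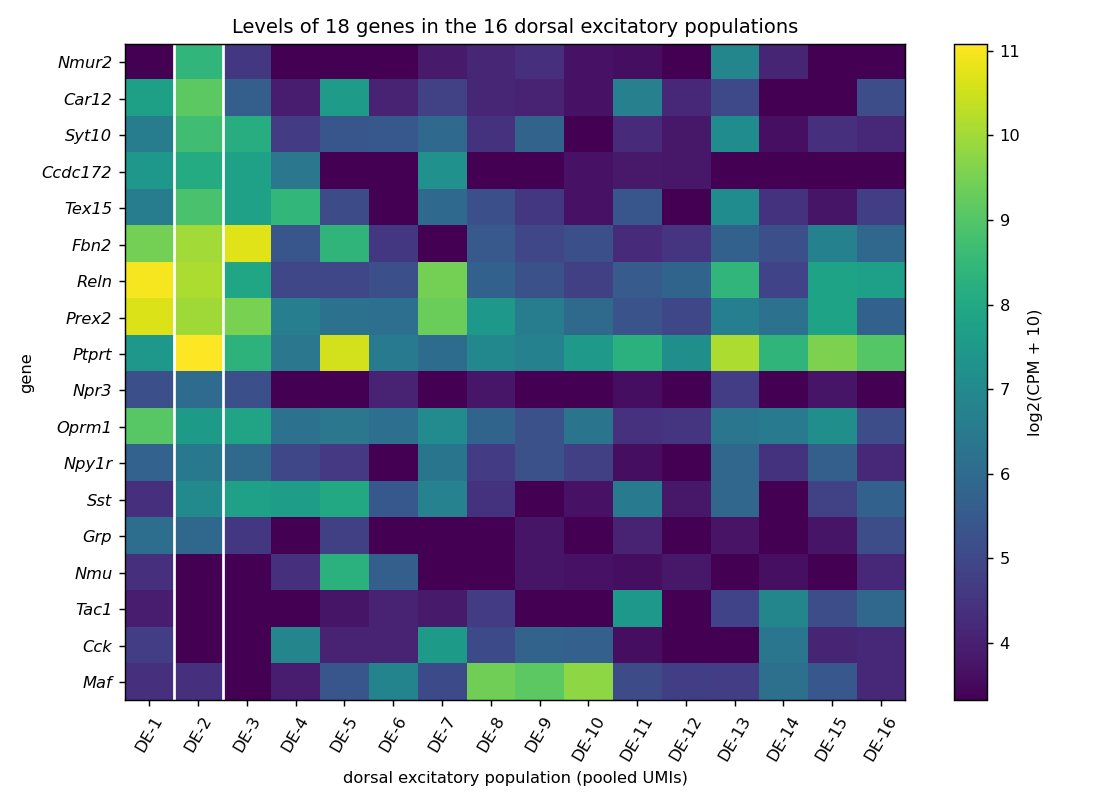
Pooled level of 18 genes (rows) in each of the 16 DE populations (columns), coloured by log2(CPM + 10); white lines frame DE-2. Nmur2, Car12, Syt10, Tex15 and Ptprt are brightest in DE-2, Reln and Prex2 in DE-1 and Fbn2 in DE-3, while Nmu is brightest in DE-5, Tac1 in DE-11 and Cck in DE-7, where DE-2 has 0 UMIs of each.

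Leading genes were counted together nucleus by nucleus. Of 6 of them (Nmur2, Car12, Syt10, Fbn2, Reln and Tex15), at least 3 had a UMI in 58 of 80 DE-2 nuclei (72.5%), in 49 of 1168 other DE nuclei (4.20%), in 29 of 68 DE-1 nuclei (42.6%), in 11 of 93 DE-13 nuclei and in 0 of 157 DE-11 nuclei. Every DE-2 nucleus had at least 1 of the 6, and 3 nuclei had all 6. These 6 were chosen after their values were seen, and the clusters rest on such genes, so the counts describe the cluster. Within DE-2, Reln was found in 32 of the 35 nuclei with Nmur2 and in 28 of the 45 without it. The nuclei with Nmur2 were also deeper, with a median of 2397 against 1737 UMIs, and the part of depth in this was not tested. The opioid receptor gene Oprm1 had a UMI in 12 of the 35 and in 4 of the 45.

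**Figure D3:**
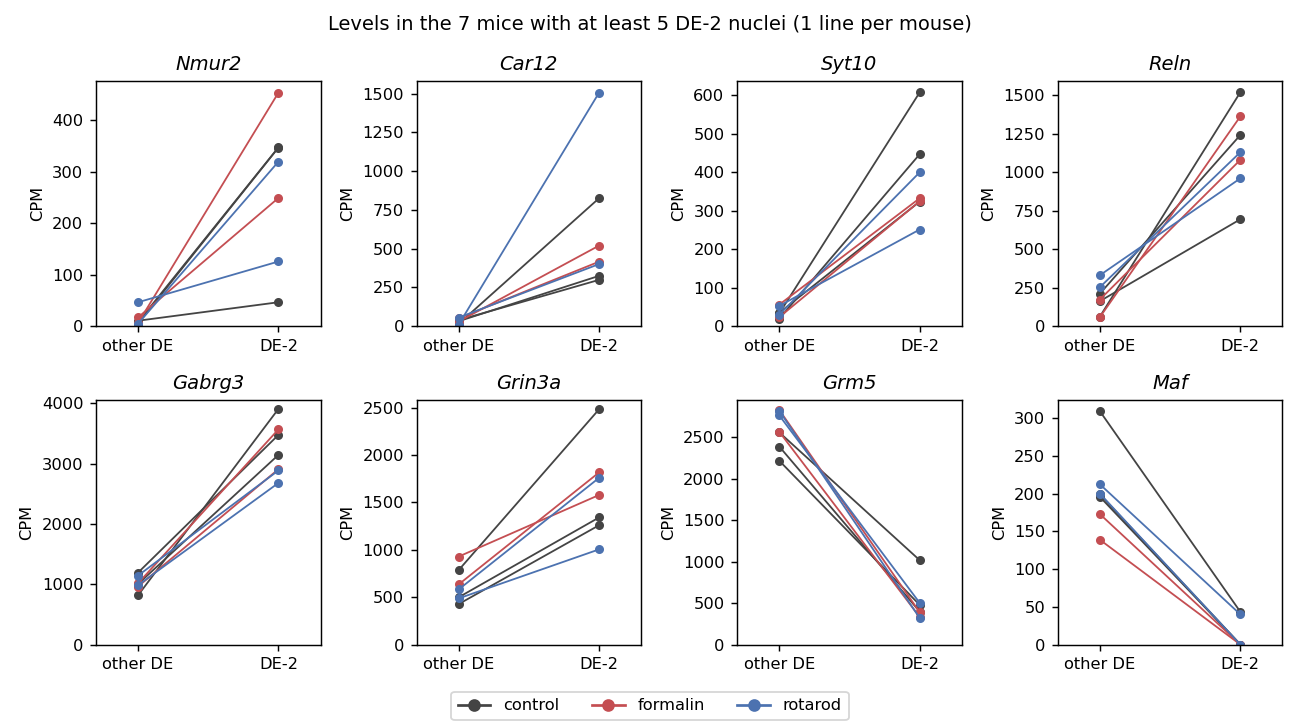
Level in CPM of 8 genes in the other DE nuclei (left) and DE-2 nuclei (right) of each of the 7 mice with at least 5 DE-2 nuclei. Each line is 1 mouse, coloured by group, and all lines rise for Nmur2, Car12, Syt10, Reln, Gabrg3 and Grin3a and fall for Grm5 and Maf.

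DE-2 carried glutamatergic genes and few counts of inhibitory ones. Slc17a6 had 25 UMIs in 19 nuclei, at 0, 130 and 166 CPM over the 7 mice against 52.6, 104 and 134 CPM. The groups overlapped and the pooled ratio was 1.25 (0.798 to 1.88), with DE-15 highest at 199 CPM. Slc17a7 and Slc17a8, the other vesicular glutamate transporters, had 0 UMIs. The GABA-synthesis genes Gad2 and Gad1 had 5 and 2 UMIs, the vesicular transporter Slc32a1 had 1 and the glycine transporter Slc6a5 had 1. For Gad2 this was 27.7 CPM, the highest of the DE populations, against 5.04 CPM in other DE nuclei and 289 CPM in the inhibitory population MI-4. A Gad2 UMI was found in 4 of 80 DE-2 nuclei (1.38 to 12.3%, exact binomial) and in 1.56% of oligodendrocytes.

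Of 36 neuropeptide and granin genes in the table, 27 had 0 UMIs in DE-2 and 5 were counted. Sst, which encodes somatostatin, was the one at least 2-fold higher: 22 UMIs in 16 nuclei, with 0, 64.9 and 370 CPM over the mice against 28.1, 41.3 and 172 CPM. The ranges overlapped, the pooled ratio was 2.10 (1.28 to 3.27), and DE-5 was highest with 252 CPM. Chgb, a granin of dense-core vesicles, was 2.30-fold lower (1.41 to 4.05). The tachykinin genes Tac1 and Tac2 and the cholecystokinin gene Cck had 0 UMIs, which made them at least 2.09-fold, at least 2.18-fold and at least 2.13-fold lower than in other DE nuclei, taking 3 counts over the pooled nuclei as the limit. The neurotensin gene Nts, also at 0 UMIs, was at least 3.70-fold lower. Pdyn, Nmb and Gal had 0 UMIs too, but too few in the other DE nuclei for a limit.
Grp, the gastrin-releasing peptide gene, had 9 UMIs in 8 nuclei and was 6.32-fold higher (2.60 to 14); it was chosen for mention after its values were seen, and DE-1 had 60.1 CPM against 49.8 CPM in DE-2. The ligands of the leading receptor were not found in DE-2: Nmu and Nms had 0 UMIs. Nmu was highest in DE-5, with 302 CPM, and Nms in DE-15, with 25.8 CPM from a few UMIs.

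Peptide receptors were sparse, with 19 of 45 genes showing any UMI in DE-2 and 2 counted. Both of these, Nmur2 and Oprm1, were at least 2-fold higher, beside 6.72% of all counted genes. Nmur2 was counted through its 61 UMIs in DE-2, so the count gives no support to a direction for the list. Oprm1 encodes the mu opioid receptor, an inhibitory receptor and the target of morphine. It was at 46.3, 199 and 519 CPM in the DE-2 mice and 51.6, 70.3 and 176 CPM in the rest, higher in 6 of 7 mice and overlapping, with a pooled ratio of 2.08 (1.39 to 3.01). It was higher in DE-1, at 525 CPM. The next receptors were chosen after their values were seen. Npr3, the natriuretic peptide clearance receptor, had 10 UMIs in 7 nuclei and was 11.0-fold higher (4.45 to 25.7), and DE-2 had its highest level of all 43 populations. Npr1, the guanylyl cyclase receptor of natriuretic peptides, had 8 UMIs and was 5.01-fold higher (1.98 to 11.3), behind DE-3 with 109 CPM. Npy1r, the Y1 receptor of neuropeptide Y, had 14 UMIs and was 3.11-fold higher (1.63 to 5.53), but only 3 of 7 mice lay above. Tacr1, the substance P receptor, had 2 UMIs against 149 in the rest, a ratio of 0.236 (0.0283 to 0.866). Grpr, the receptor of gastrin-releasing peptide, had 0 UMIs and 31 in all other DE nuclei, too few for a limit.

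Glutamate receptors differed among themselves. Of 26 genes 19 were counted, of which 2 were at least 2-fold higher and 7 at least 2-fold lower, with a median log2 ratio of -0.33 beside 0.04 for all counted genes. Of the 26, 17 had at least 10 UMIs in DE-2. Counted members with fewer passed through their level in the other DE nuclei, so the count gives no support to a direction. The AMPA receptor subunit Gria1 was 2.00-fold higher (1.78 to 2.25) and the NMDA receptor subunit Grin3a, which lowers calcium entry, 2.52-fold higher (2.22 to 2.86). Grin3a was at 1004, 1579 and 2483 CPM in DE-2 mice against 427, 581 and 928 CPM with no overlap, and DE-2 had the highest level of all 43 populations.
On the lower side, Grm5, a Gq-coupled metabotropic receptor, was found in 42 of 80 DE-2 nuclei against 1063 of 1168. Its DE-2 levels were 320, 397 and 1018 CPM against 2218, 2568 and 2831 CPM, 5.75-fold lower when pooled (4.63 to 7.24). Every DE-2 value was below every other, and DE-2 had the lowest Grm5 level of the 43 populations, although DE-1 was next with 465 CPM against 454 CPM. The NMDA subunit Grin2a was 6.24-fold lower (4.28 to 9.48). The kainate receptor subunit Grik1 was 5.03-fold lower (2.99 to 9.23) and the presynaptic receptor Grm8 4.02-fold lower (2.17 to 8.41). Grm7, another presynaptic metabotropic receptor, went the other way at 1.51-fold higher (1.39 to 1.63) in 7 of 7 mice.

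Of 23 GABA and glycine receptor genes 12 were counted, 1 (8.33%) higher and 2 (16.7%) lower by 2-fold. Over all counted genes these shares were 6.72% and 8.63%. The median log2 ratio was 0.07. Of the 23, 11 had at least 10 UMIs in DE-2, and Gabra5, with 4, was counted through its level in the other DE nuclei. Gabrg3, a gamma subunit of the GABA-A receptor, was at 2679, 3145 and 3908 CPM in DE-2 and 816, 1004 and 1191 CPM in the rest, without overlap. The pooled ratio was 3.39 (3.10 to 3.70), and DE-5 was higher with 3586 CPM. Gabra5, which marks extrasynaptic receptors, was 6.79-fold lower (2.64 to 25) on 4 UMIs. Gabbr2, a subunit of the GABA-B receptor, was 2.65-fold lower (1.77 to 4.15), the lowest level of the 43 populations. The postsynaptic scaffold gene Gphn was near the rest at a ratio of 1.12 (0.980 to 1.27).

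The 4 counted receptors for serotonin and acetylcholine, of 51 monoamine, acetylcholine and purine receptor genes, were all at least 2-fold lower, with a median log2 ratio of -1.62, beside 8.63% lower and a median of 0.04 over all counted genes. Of the 51, 32 had 0 UMIs in DE-2 and 16 had 1 to 9. Members with few UMIs in DE-2, such as Htr4 with 4, were counted through their level in the other DE nuclei, so the count gives no support to a direction for the list. Htr4 and Htr2c, both serotonin receptors, were 5.6-fold (2.17 to 20.6) and 2.69-fold lower (1.67 to 4.65). Chrm2 and Chrm3, muscarinic acetylcholine receptors, were 3.49-fold (2.17 to 6.01) and 2.63-fold lower (1.67 to 4.39). Chrm2, Chrm3 and Htr2c were below in 7 of 7 mice, while Htr4 was below in 6. These counts are 4 to 19 UMIs in DE-2.

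**Figure D4:**
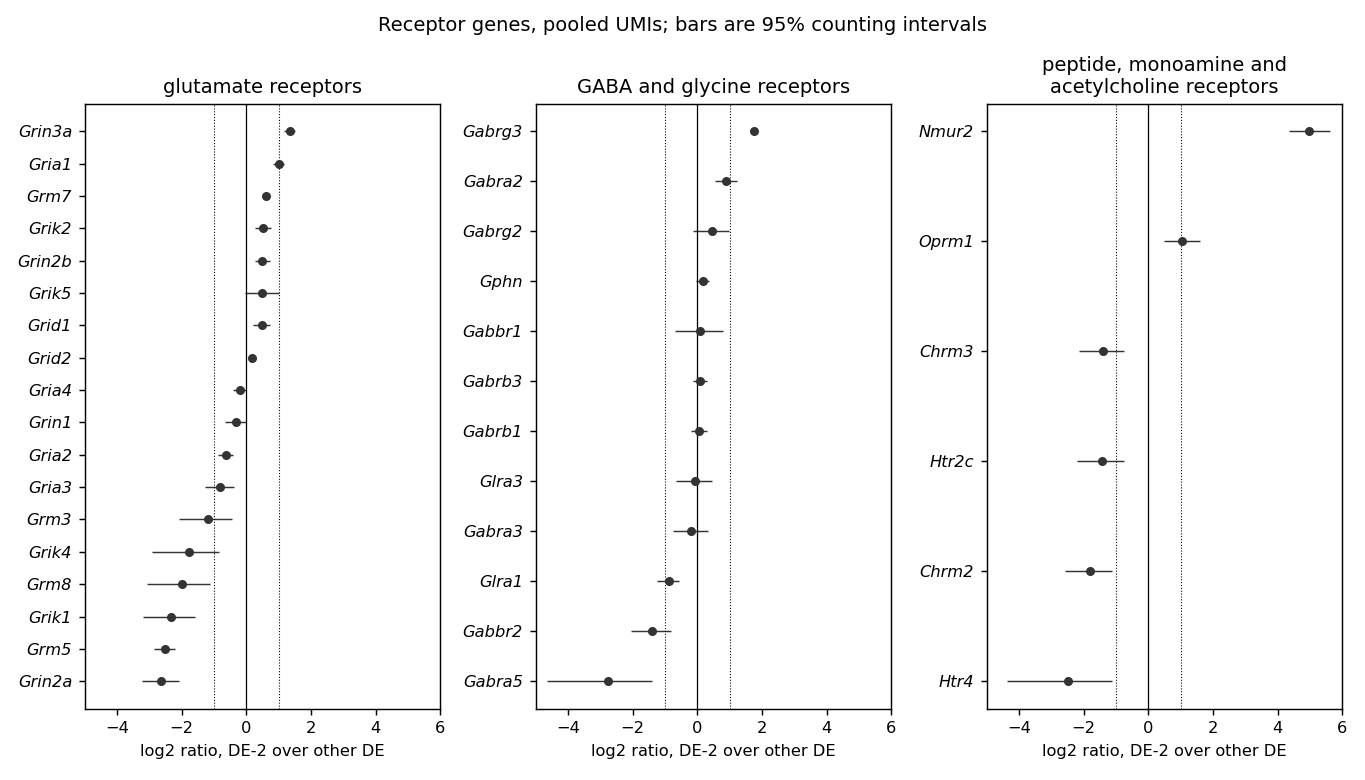
The log2 ratio of pooled levels, DE-2 over other DE nuclei, for counted receptor genes in 3 panels; bars are 95% counting intervals, the solid line marks equal levels and the dotted lines 2-fold. Nmur2 lies at 4.98, Gabrg3 at 1.76 and Grin3a at 1.34, while Gabra5 lies at -2.76, Grin2a at -2.64 and Grm5 at -2.52.

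Of 72 ion channel and channel partner genes 45 were counted, with 4 (8.89%) higher and 13 (28.9%) lower by 2-fold. Over all counted genes these shares were 6.72% and 8.63%. The median log2 ratio was -0.24. Of the 72, 43 had at least 10 UMIs in DE-2. Counted members with fewer, such as Cacna1g with 5, passed through their level in the other DE nuclei. The count therefore gives no support to a direction for the list. Kcnip4, an A-type potassium channel partner, was at 9415, 12157 and 14702 CPM in DE-2 mice against 3939, 4625 and 5475 CPM. The ranges did not overlap and the pooled ratio was 2.45 (2.35 to 2.57), with DE-6 higher at 13764 CPM. Kcnh1, an ether-a-go-go potassium channel, was 3.12-fold higher (2.37 to 4.07), and the inwardly rectifying channel Kcnj6 2.26-fold higher (1.70 to 2.96), though in 4 of 7 mice. The T-type calcium channel genes went apart: Cacna1h was 2.86-fold higher (1.54 to 4.97) on 15 UMIs, and Cacna1g 4.65-fold lower (1.98 to 14.4) on 5 UMIs. Cacna1h changed direction when nuclei were thinned to 500 UMIs, to a log2 ratio of -0.66.
Trpm3, a heat-activated cation channel, had 542 CPM in DE-2 and 2098 CPM in the rest, 3.87-fold lower (3.17 to 4.77) and below in 7 of 7 mice. Trpc5, a cation channel, was 10.8-fold lower (5.25 to 27.0) and the calcium-gated channel family gene Ano3 4.72-fold lower (2.56 to 9.89). Cacna2d1, the alpha-2-delta subunit to which gabapentin binds, was 1.72-fold higher (1.55 to 1.92) in 7 of 7 mice.

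Of 112 transcription factor genes, 39 were counted, with 4 higher and 13 lower by 2-fold (10.3% and 33.3%) and a median log2 ratio of -0.37. Over all counted genes the shares were 6.72% and 8.63% and lower also exceeded higher. Of the 112, 33 had at least 10 UMIs in DE-2. Counted members with fewer, such as Maf with 2, passed through their level in the other DE nuclei. The count therefore gives no support to a direction for the list. Ebf3, an early B-cell factor, was at 560, 879 and 1103 CPM in DE-2 mice against 281, 410 and 534 CPM, with no overlap and a ratio of 2.09 (1.76 to 2.46). Its relatives Ebf2 and Ebf1 were 1.87-fold (1.62 to 2.15) and 1.51-fold higher (1.39 to 1.63), each in 7 of 7 mice. Lmx1b, needed for the development of these neurons, was 1.94-fold higher (1.41 to 2.61) when all mice were pooled. Its DE-2 level was uneven over the groups, with 135 CPM in control, 249 CPM in formalin and 557 CPM in rotarod mice. These levels rest on 11, 14 and 24 UMIs. The control counting interval ended at 241 CPM and the rotarod one began at 357 CPM. The part of the stimulated mice in the pooled Lmx1b ratio was not tested. Prrxl1, which acts beside Lmx1b, was 2.10-fold higher (1.23 to 3.38) on 19 UMIs.
Maf, a bZIP factor of deep dorsal horn neurons that process touch, had 2 UMIs in DE-2 and 643 in the rest, a ratio of 0.0546 (0.00660 to 0.198). It was at 0, 0 and 43.4 CPM against 139, 199 and 310 CPM, without overlap. Maf was highest in DE-10, with 855 CPM, and DE-1 had 10.9 CPM beside 11.1 CPM in DE-2. Tshz3 had a ratio of 0.0508 (0.0105 to 0.149) and Meis2 of 0.0876 (0.0180 to 0.257), each on 3 UMIs, and Sox5 was 10.6-fold lower (5.35 to 24.5). Pbx3 was 6.03-fold lower (2.75 to 16.5), and Rora, a nuclear receptor of excitatory dorsal horn neurons, 2.02-fold lower (1.77 to 2.31), all below in 7 of 7 mice.

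Intracellular signalling genes went both ways. Of 31 calcium-binding, kinase and related genes 23 were counted, 4 (17.4%) higher and 7 (30.4%) lower by 2-fold. Over all counted genes these shares were 6.72% and 8.63%. The median log2 ratio was -0.08. Of the 31, 21 had at least 10 UMIs in DE-2. Counted members with fewer passed through their level in the other DE nuclei, so the count gives no support to a direction. Rgs7, a brake on G-protein signals, was at 1632, 1719.7 and 2271 CPM against 426, 534 and 595 CPM, 3.44-fold higher (3.04 to 3.87) and the highest of the 43 populations. Both cGMP-dependent kinase genes were higher, Prkg2 at 2.60-fold (1.78 to 3.70) and Prkg1 at 2.20-fold (2.01 to 2.41), each in 7 of 7 mice. Prkca, a protein kinase C gene, was 4.43-fold lower (2.79 to 7.50), and Ryr2, a calcium release channel of the endoplasmic reticulum, 3.44-fold lower (2.55 to 4.74). Ryr2 was at its lowest of the 43 populations in DE-2. Adcy2, an adenylyl cyclase, had the lowest ratio of the named genes, 0.0415 (0.00502 to 0.150), on 2 UMIs against 846.

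Of 93 genes for adhesion, guidance and synapse organisation 66 were counted, with 3 (4.55%) higher and 24 (36.4%) lower by 2-fold. Over all counted genes these shares were 6.72% and 8.63%. The median log2 ratio was -0.47. Of the 93, 64 had at least 10 UMIs in DE-2. Counted members with fewer passed through their level in the other DE nuclei, so the count gives no support to a direction. Besides Reln, the guidance protein gene Sema6d was 3.29-fold higher (2.95 to 3.66), at 1526, 2160.2 and 2559 CPM against 455, 721 and 889 CPM, and highest of the 43 populations. Sema6d also had a UMI in 57.1% of oligodendrocytes, against 55.7% of other DE nuclei and 95% of DE-2 nuclei. The protocadherin Pcdh15 was 2.02-fold higher (1.85 to 2.19), behind DE-11. Tenm2, a teneurin that bridges synapses, was 4.83-fold lower (3.82 to 6.2), and the netrin receptor Dcc 4.75-fold lower (3.68 to 6.25). The sorting receptor Sorcs1 was 7.03-fold lower (4.25 to 12.6) and netrin-G1, encoded by Ntng1, 5.39-fold lower (3.36 to 9.28), all in 7 of 7 mice. Fam19a1, a secreted chemokine-like protein, had 16 UMIs, with 0, 86.8 and 126 CPM over mice against 1258, 1465 and 1579 CPM. It was 16.4-fold lower (10.1 to 28.8).

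All 15 genes with the lowest ratios lay below the other DE nuclei in 7 of 7 mice, beside 7.93% of all counted genes. The naming rule itself favours this. For 10 of the 15 genes DE-2 had at most 3 UMIs. DE-2 ranked last of the 16 DE populations for 5 (Adcy2, Pdzrn4, Nell2, Fstl4 and Slc35f3), and for the other 10 at least 1 other DE population was lower. The lowest of the other DE populations was DE-3, with its 37 nuclei, for 6 genes and DE-1 for 4. The last gene named was Tcerg1l, with a ratio of 0.104, and the first left out was Galnt14, with 0.105.

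Over 11542 genes the populations most like DE-2 by Pearson's r of log2(CPM + 10) were DE-13 (0.867), DE-1 (0.862) and DE-11 (0.861). Of the DE populations DE-3 was the least alike (0.806). The r describes likeness across genes, which are not independent replicates. Set directly beside DE-13, 296 of 3094 counted genes were at least 2-fold higher in DE-2 and 290 at least 2-fold lower, beside DE-1 265 and 240 of 3043, and beside DE-11 303 and 290 of 3072.
DE-13 shared part of the Nmur2 signal (109 CPM) but had little Car12 (23.1 CPM) or Fbn2 (42.9 CPM). DE-1 shared the low Grm5 (465 CPM) and Maf (10.9 CPM) and high Reln (1984 CPM) and Ebf1, yet it had 164 CPM of Ptprt against 2152 CPM in DE-2 and 694 CPM of Kcnip4 against 12109 CPM. Chrm2 was 1349.9 CPM in DE-1 and 94.0 CPM in DE-2. DE-11 was like DE-2 in Kcnip4, with a ratio of 1.00, and had 2.28 CPM of Nmur2. These contrasts have no test, since the same genes formed the populations.

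The share of DE-2 among DE nuclei was compared between groups, and the differences were within the spread of mice. It had a low of 0, a median of 4.88 and a high of 11.8% in the 9 control mice, 0, 6.17 and 9.09% in the 10 formalin mice, and 2.56, 4.46 and 7.08% in the 5 rotarod mice. The groups overlapped almost wholly. The mean was 4.96 ± 3.77% (SD, n = 9) in control and 5.90 ± 2.83% (n = 10) in formalin mice, a difference of 0.938 percentage points (p = 0.543, exact permutation test, two-sided). It was 4.93 ± 1.81% (n = 5) in rotarod mice, a difference of -0.03 points (p = 0.989, exact permutation test; both adjusted p = 0.989). The shares rest on 0 to 10 DE-2 nuclei a mouse.

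**Figure D5:**
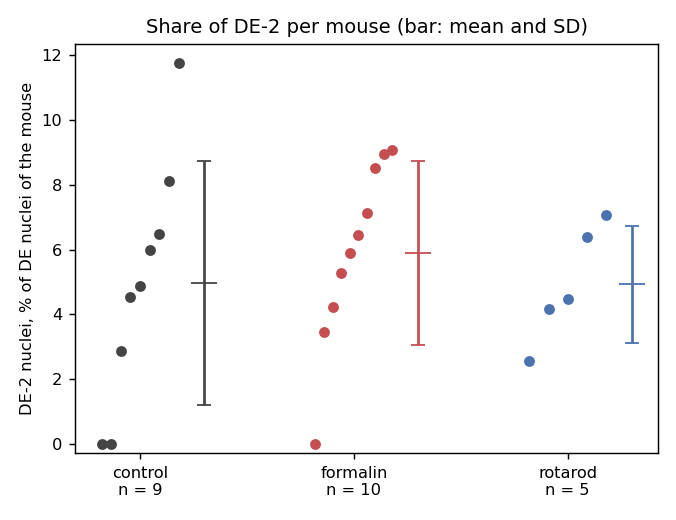
DE-2 nuclei as a percentage of all DE nuclei of the same mouse, 1 point per mouse, with the mean and SD of each group beside the points. Control mice run from 0 to 11.8%, formalin mice from 0 to 9.09% and rotarod mice from 2.56 to 7.08%, so the groups overlap.

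The leading genes were present in DE-2 nuclei of all 3 groups. Pooled Nmur2 was 282 CPM (179 to 423, exact Poisson) in control, 392 CPM (246 to 593) in formalin and 371 CPM (212 to 603) in rotarod mice. Reln was 1201, 1105 and 905 CPM in the same order, and Car12 478, 535 and 696 CPM, with overlapping counting intervals for both genes. These pools held 34 control, 28 formalin and 18 rotarod nuclei.

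Changes within DE-2 after formalin or rotarod were not tested across genes at 5 nuclei per mouse, because the design asked for at least 3 such mice in a group and formalin and rotarod had 2 each. With at least 3 nuclei per mouse, 4 control, 4 formalin (replicates 2, 5, 7 and 10, both of the pairs above) and 3 rotarod mice could be fitted with edgeR's quasi-likelihood test. Of 235 genes tested, 0 (0%) were called at a Benjamini-Hochberg adjusted p below 0.05 for formalin and 0 (0%) for rotarod. At an unadjusted p below 0.05 there were 8 and 12 genes, and DESeq2 also called 0 in both.
The gene with the smallest p for formalin was Magi1, a synaptic scaffold. It ran from 1233 to 3577 CPM in 4 formalin mice and from 795 to 1650 CPM in 4 control mice, overlapping. The fitted difference was 0.92 on the log2 scale, with a standard error of 0.37 and an adjusted p of 0.954 (edgeR). For rotarod it was the mitochondrial ribosomal RNA gene mt-Rnr1, with 0 to 2511 CPM in 3 rotarod mice and 226 to 509 CPM in controls. Here the fitted difference was 1.70 on the log2 scale, with a standard error of 0.59 and an adjusted p of 0.745 (edgeR). In a fit of only the rotarod and control mice mt-Rnr2 was called, and without rotarod replicate 2 mt-Rnr1 was. The same fit was run on simulated counts in which 200 genes per comparison were changed by 4-fold. For formalin 117 of the 200 were tested, and 105 of these (89.7%) were called, with 9 false calls. For rotarod 83 of the 200 were tested, and 76 of these (91.6%) were called, with 7 false calls. Changed genes that were not tested could not be called. The simulated spread may differ from that between these mice and their resembling pairs, so these shares may not hold here. Smaller changes were not simulated.

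Rapid activity genes, which neurons switch on within minutes of strong input, had few counts in DE-2. Their 23 members summed to 13 UMIs: 9 in control, 4 in formalin and 0 in rotarod nuclei, and 14 members had none. Fos had 0 UMIs in DE-2 and 7 in all other DE nuclei. Over 3 control mice with at least 5 nuclei the sum was 49.7, 92.5 and 130 CPM, and it was 0 in the 2 formalin and the 2 rotarod mice. The difference from control was -90.8 CPM for each (p = 0.2, exact permutation test, two-sided; the smallest p this design allows is 0.1; adjusted p = 0.4). The control sum was 6 UMIs in all. Over all 5 rotarod mice, not only the 2 compared, 0 UMIs in 43080 allow up to 69.6 CPM at 3 counts. The exact Poisson interval of that pool runs up to 85.6 CPM. The 2 rotarod mice compared held 25005 and 7966 UMIs, so their limit is higher. Over all formalin mice, with 56122 UMIs, 3 counts are 53.5 CPM. The 2 formalin mice compared held 12036 and 15412 UMIs, so their limit is higher than that. At these depths 0 UMIs do not by themselves show a level below control.
With at least 3 nuclei formalin was at 0 CPM in 4 mice and control at 125 ± 75.3 CPM (n = 4; p = 0.0286, exact permutation test, the smallest possible; adjusted p = 0.114). These 4 samples are the resembling pairs above, so n may be 2. With pairs merged, at the minimum of 5 nuclei, the difference was -90.8 CPM (p = 0.2, exact permutation test), and -87.7 CPM after subtracting the other DE nuclei (p = 0.2, exact permutation test). With nuclei thinned to 500 UMIs it was 0 CPM for both stimuli (p = 1, exact permutation test). No rapid activity UMI was left in the mice compared, so this setting could not show a difference. With every mouse that held a DE-2 nucleus, an alternative added after the data were seen, formalin was 11.4 CPM above control (p = 0.909, exact permutation test). In the other DE nuclei of the same animals the sum over the 7 mice ran from 44.5 to 110 CPM. The difference between DE-2 and the other DE nuclei was lower in formalin than in control mice by 102 CPM (p = 0.2, exact permutation test; the smallest possible is 0.1). Both formalin mice lay below all 3 controls, and this number of mice cannot reach the 0.05 threshold.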

How the data were processed

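The authors deposited raw UMI counts of 32962 genes in 18000 barcodes and a table of cell types, which gave DE-2 and all other populations. The builds mm10 and GRCm38 come from the submitters' processing notes. Aligner, intron counting, strand and doublet handling: not given in the sources used here; doublets were not called again. Total counts per mouse ran from 549903 to 3243587. Of the barcode sequences, 19 occurred in more than 1 library, including 1 of DE-2, and each was kept as its own nucleus. Counts were summed over nuclei with Python 3.11.15. Ratios of CPM carry exact conditional intervals. Counts within DE-2 were fitted per mouse with edgeR 4.0.16 (TMM, all 3 groups), and with DESeq2 1.42.0 as the alternative, after tests on simulated data. Named genes were the 25 highest ratios with at least 20 UMIs in DE-2 and detection in most of the 7 mice, and the 15 lowest with at least 20 expected, leaving out unnamed transcripts and mitochondrial genes, and from each list up to 5 members each way past 2-fold and its 5 most abundant. For group contrasts the genes with the smallest p were named. A gene of the lists is not reported here. The lists and the population were chosen with earlier results of these data known. Alternatives were other weights, thinning to 500 UMIs, control mice alone, other minimum nuclei and leaving out each mouse. Nothing in the labels says whether samples of a group are independent preparations, so p-values measure the spread between these samples.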

Additional observations from a re-analysis of the deposited data

Results flagged for a closer look

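Among the 2823 neuronal nuclei that the authors placed in no population, 4 nuclei had UMIs of at least 4 of the 6 leading genes (Nmur2, Car12, Syt10, Fbn2, Reln and Tex15). They are named because these nuclei entered no comparison and the count was above the 3 that a count of 0 allows, which does not make them DE-2. Their share, 0.142%, was below that in other DE nuclei, 12 of 1168 (1.03%), and the 6 genes were chosen for being high in DE-2. In DE-2 46 of 80 nuclei reached that number, and in oligodendrocytes and in nuclei the authors discarded 0.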

How the results depend on the processing

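Of 129 named genes under 26 settings, 15 of 3339 ratios moved by at least the SD of the log2 ratio over the 7 mice. Of these settings 21 left out 1 mouse each, which changes a pool little, and 1 ratio moved there. Thinning to 500 UMIs moved 9 of the 122 ratios it could give. Genes left with 0 UMIs under a setting gave no ratio and were left out of these counts. Only genes with enough counts were run, so sparser ones such as Npr3, Npr1, Grp and Npy1r had no such check. Of ratios past 2-fold, 1 changed direction, Cacna1h at -0.66 (log2) with nuclei thinned to 500 UMIs. That thinning gave 329 genes at least 2-fold higher and 565 lower, and control mice alone gave 416 lower; leaving out each mouse gave 206 to 226 higher and 271 to 295 lower. The share difference turned for formalin to -0.191 points when the 3 controls with cx in their titles were left out. Leaving out 1 mouse gave 0.318 to 1.79 points for formalin and -0.648 to 0.823 for rotarod, positive without control replicate 1, 3, 6 or 8 or rotarod replicate 1, 3 or 5. For rapid activity genes, at least 3 nuclei gave -125 CPM in formalin (p = 0.0286, exact permutation test) and -118 CPM after subtracting other DE nuclei (p = 0.0286, exact permutation test). Every mouse with DE-2 nuclei gave 11.4 CPM in formalin, and for rotarod -111 CPM (p = 0.0455, exact permutation test) and -126 CPM after subtraction (p = 0.0265, exact permutation test). Thinning to 500 UMIs gave 0 CPM within DE-2 for both stimuli, with no rapid activity UMI left to compare. Merging formalin pairs gave -90.8 CPM, or -87.7 CPM after subtraction. Leaving out 1 mouse gave -111 to -71.1 CPM within DE-2, and after subtraction -135 to -69.7 CPM for formalin and -132 to -82.2 CPM for rotarod. Rotarod calls were 1 gene with only the 2 groups compared (mt-Rnr2, edgeR adjusted p = 1.28e-08) and 0 to 1 when a mouse was left out (mt-Rnr1 without rotarod replicate 2, edgeR adjusted p = 0.0312); formalin calls stayed at 0. The cause of these shifts was not tested. A minimum of 10 nuclei per mouse was not run, since 1 mouse reached it. No paired analysis was possible because the control titles give no number that pairs each control with 1 formalin or rotarod sample. Depth limits genes under about 10 UMIs (55.3 CPM in DE-2).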

Other observations

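An unnamed transcript outside the naming rule, AC158531.2, had the highest pooled ratio of the 3141 counted genes, with 32 UMIs in DE-2 and 3 in other DE nuclei. All 32 UMIs were in 1 nucleus. It was 1 of the 211 genes at least 2-fold higher, and the only one of them with most of its UMIs in 1 nucleus. Another transcript chosen after its values were seen, 9530026P05Rik, behaved otherwise: it was found in 73 of 80 DE-2 nuclei at 944, 1506 and 1989 CPM over the 7 mice against 56.3, 143 and 360 CPM, a 7.79-fold ratio (6.73 to 9.01), and DE-1 was higher with 1886 CPM.

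Formalin samples came in pairs that the labels do not explain. Over 6793 genes in all neurons, the deviations of samples n and n + 5 from the group mean had a mean r of 0.253, against -0.150 for other formalin pairs, and 10 of 10 samples were closest to that partner. Formalin replicates 5 and 10, the 2 formalin mice with at least 5 DE-2 nuclei, are such a pair. With each pair merged into 1 sample, the DE-2 share of DE nuclei was 0.695 points above control (p = 0.716, exact permutation test).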
